A study of Mus musculus with 6 samples.

Results

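Krt13-low mitotic cells are cells of mouse esophageal organoids that carried the most mRNA of 8 cell division genes and little mRNA of Krt13, a keratin that esophageal cells make once they leave the basal layer. They were chosen from the deposited values, which are natural logs of 1 plus the unique molecular identifiers (UMIs, counted mRNA molecules) of a gene per 10000 UMIs of the cell. Barcodes with at least 500 detected genes were pooled over all 6 libraries and scored by the mean value of Top2a, Mki67, Birc5, Ube2c, Cenpf, Nusap1, Hist1h1b and Pclaf. Cells at or above the pooled 90th percentile of this score, 0.496, with a Krt13 value below 3 were taken. They numbered 2177 of 25154 kept cells, or 8.65%. Another 339 cells reached the score with a Krt13 value of 3 or more, and these are counted among the 22977 other kept cells.

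The organoids were grown from esophageal epithelial cells of C57BL6 mice. Founder cells were sorted as integrin-b1 positive, which selects cells that bind the basement membrane, and DAPI negative, which removes dead cells. They were then split into Low and High by Cyto-ID, a dye taken up into vesicles of autophagy. Both groups were grown in Matrigel for 15 days in the same medium with EGF, Noggin, R-Spondin and Y27632, then dissociated, depleted of dead cells and sequenced with a droplet 3′ kit. Each group had 3 libraries, labelled F2, M3 and F6, and triplets of values below follow that order. The sort was done on the founders, so the cells measured are their descendants and were not themselves sorted by Cyto-ID. The labels do not say whether F2, M3 and F6 are separate animals and give no animal age, so p-values measure only the spread between these libraries, which may be technical.

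Squamous epithelium renews itself from its basal layer, where cells attached to the basement membrane divide and from which daughters move up and differentiate. A dividing cell first copies its DNA in S phase with genes such as the Mcm helicase subunits, and makes histones at the same time to package the new DNA. In G2 and mitosis it makes cyclin B, the kinase Cdk1, the spindle motors and the anaphase-promoting complex with its partners. Promoters of many G2 and mitosis genes hold CCAAT boxes, bound by the factor NF-Y, and a motif called CHR (cell cycle genes homology region), bound by the MuvB complex, while many S phase promoters are bound by E2F factors.

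The promoters of 4 genes that lead these cells are shown, 1 for each of the DNA-untangling enzyme Top2a, the ubiquitin-conjugating enzyme Ube2c, which works with the anaphase-promoting complex, the mitotic kinase Cdk1 and the anaphase activator Cdc20. Sequences come from RefSeq on GRCm38.p6 and give the 150 bases before the annotated start, 5′ to 3′ on the strand of the gene. Top2a lies at chr11:99024190-99024339 on the minus strand, Ube2c at chr2:164769779-164769928 on the plus strand, Cdk1 at chr10:69352913-69353062 on the minus strand and Cdc20 at chr4:118437344-118437493 on the minus strand. Capitals mark CCAAT (or ATTGG, its reverse complement) and the CHR motifs TTTGAA (or TTCAAA) and TTCGAA.
Top2a: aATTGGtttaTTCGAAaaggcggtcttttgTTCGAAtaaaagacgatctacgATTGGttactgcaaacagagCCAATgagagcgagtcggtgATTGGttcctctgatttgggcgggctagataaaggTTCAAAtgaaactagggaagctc
Ube2c: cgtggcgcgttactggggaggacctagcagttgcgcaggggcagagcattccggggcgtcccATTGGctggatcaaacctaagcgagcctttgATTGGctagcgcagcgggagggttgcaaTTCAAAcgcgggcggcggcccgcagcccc
Cdk1: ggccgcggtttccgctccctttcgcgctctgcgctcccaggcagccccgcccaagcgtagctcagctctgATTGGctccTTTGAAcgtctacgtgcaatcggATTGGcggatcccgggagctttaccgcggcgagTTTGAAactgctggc
Cdc20: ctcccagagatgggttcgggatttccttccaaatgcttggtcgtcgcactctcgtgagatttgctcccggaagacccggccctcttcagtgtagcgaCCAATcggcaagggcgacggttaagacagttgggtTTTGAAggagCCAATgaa
The printed stretch of Top2a held 4 CCAAT boxes and 3 CHR motifs, that of Ube2c 2 and 1, that of Cdk1 2 and 2, and that of Cdc20 2 and 1.
Promoter windows of 300 bases, from 250 before to 50 after the start, were found for 62 of 76 genes of the rule and the G2 and mitosis list together (81.6%). Of these, 48 (77.4%) held CCAAT on either strand, against 41.9% of all 20525 genes with a window. At least 2 CCAAT boxes were found in 33 (53.2%), against 14.2% of all genes. A CHR motif was found in 45 (72.6%) against 20.4%, and both kinds in 40 (64.5%) against 8.35%. CCAAT was also frequent in the S phase list, in 28 of 44 windows found (63.6%), with at least 2 boxes in 19 (43.2%). A CHR motif was found in 9 of these 44 (20.5%). Birc5, which blocks apoptosis and serves the chromosomal passenger complex, and Nusap1, which bundles spindle microtubules, held neither motif in their window. These matches describe letters in a window and are no measure of binding.

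The libraries held 8457489 to 48957523 UMIs, and between 0 and 10 barcodes were shared by any 2 of them. Krt13-low mitotic cells had more UMIs than other cells of their library. Their median UMIs were 10515, 7732 and 3428 in Cyto-ID Low against 7670, 5970 and 2688 in other cells, and 14626, 2806 and 2590 in Cyto-ID High against 9735, 2322 and 1856. The ratio was 1.31 ± 0.05 in Low and 1.37 ± 0.15 in High (SD, n = 3, p = 0.60, two-sided exact permutation test), and the groups overlapped. Of 29 markers of fibroblasts, immune cells, endothelium, muscle, melanocytes and nerve, 14 were at 0 in these cells in every library, among them Col1a1, Ptprc, Cdh5, Des and Sox10. The highest sum of any such list was 37.0 CPM (UMIs of a gene per 1000000 UMIs of the cell), for muscle, in a library where Acta2, a smooth muscle actin, alone reached that value.

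The 8 genes that chose the cells are given as a description, with no test. Top2a was at 370, 380 and 349 CPM in Cyto-ID Low and 402, 367 and 377 CPM in High, as the mean over the cells of each library, and at 7.12 to 12.7 CPM in other cells. Mki67, the gene of the Ki-67 antigen, was at 224 to 403 CPM against 3.49 to 10.2 CPM. Hist1h1b, a linker histone of S phase, spread most, from 482 to 1410 CPM against 19.0 to 35.3 CPM. Pclaf, a PCNA-binding protein, was at 192 to 455 CPM against 4.14 to 22.2 CPM. The cells just inside and just outside the cut scored 0.49574 and 0.49569, and 279 cells lay within 0.05 of it. The Krt13 values nearest the limit were 2.9996 inside and 3.0038 outside, and 845 members (38.8%) had no Krt13 UMI. The median score of members was 1.11, while 77.6% of other kept cells scored 0.

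The remaining genes of G2 and mitosis moved with the 8 of the rule. Because the rule chose the cells on genes of the same programme, the comparison with other cells is a description, made as the difference of log2(CPM + 10) in each library. All 68 measured genes of the G2 and mitosis list were higher in members in 6 of 6 libraries, with a median difference of 2.18. Over all 12014 genes compared, 26.5% were higher and 11.1% lower in 6 of 6 libraries, with a median of 0.08. Stmn1, which destabilises microtubules, was at 943, 1204 and 881 CPM in Low and 852, 1600 and 719 CPM in High, against 62.3 to 152 CPM in other cells. Cdk1 was at 220, 167 and 98.2 CPM in Low and 154, 112 and 134 CPM in High, against 1.91 to 7.46 CPM. Its partner cyclin Ccnb1 was at 117, 141 and 75.3 CPM in Low and 104, 131 and 99.6 CPM in High, against 1.85 to 7.17 CPM. For each of these 3 genes the lowest library of the members stood above the highest library of other cells, and the Low and High libraries overlapped.

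Other machines of mitosis were present together. The chromosomal passenger complex, which corrects attachments of chromosomes to the spindle, was represented by Cdca8 at 174 to 343 CPM against 9.0 to 30.1 CPM and by Incenp at 65.3 to 135 CPM against 6.46 to 7.91 CPM. Of the spindle, the midzone protein Prc1 was at 170 to 302 CPM against 9.91 to 12.4 CPM and the assembly factor Tpx2 at 136 to 170 CPM against 3.24 to 12.5 CPM. At the kinetochore, the centromeric histone Cenpa was at 150 to 358 CPM against 6.7 to 23.9 CPM, the motor Cenpe at 70.5 to 134 CPM against 2.53 to 6.97 CPM, and the Ndc80 complex subunit Spc24 at 89.6 to 192 CPM against 4.87 to 14.9 CPM. Cdc20 was at 51.5 to 173 CPM against 0.76 to 10.1 CPM. The genes of cell separation Anln and Racgap1 reached 60.3 to 149 CPM and 41.6 to 121 CPM, against at most 6.88 and 7.6 CPM. Pttg1, the inhibitor of separase, differed least of the list, at 40.5 to 57.3 CPM against 30.6 to 48.7 CPM.

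**Figure D1:**
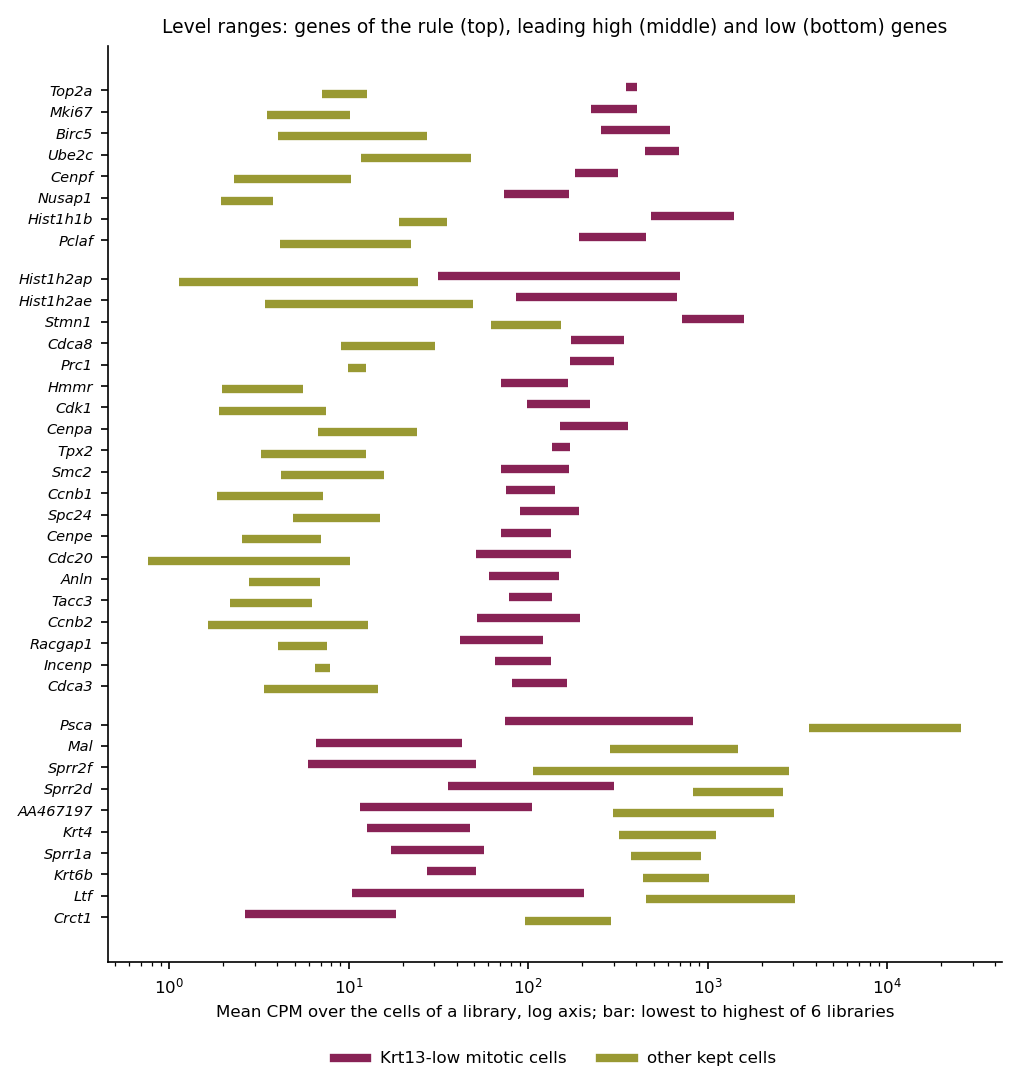
Lowest to highest mean CPM (log axis) over 6 libraries in Krt13-low mitotic cells and in other kept cells, for the 8 genes of the rule and the 20 highest and 10 lowest genes outside it. In every row the 2 bars do not overlap, for example Cdk1 at 98.2 to 220 CPM against 1.91 to 7.46 CPM and Psca at 74.5 to 826 CPM against 3668 to 25900 CPM.

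DNA replication genes were higher as well, by less. Of 56 genes of the S phase list, 54 were higher in 6 of 6 libraries and none was lower in 6, with a median difference of 1.38. The exceptions were Rpa1, a subunit of the single-strand DNA binding complex, and the G1 cyclin Ccne1, each higher in 5. Tk1, thymidine kinase, was at 99.1, 117 and 86.6 CPM in Low and 93.5, 135 and 76.6 CPM in High, against 8.69 to 18.1 CPM. Dut, which keeps uracil out of DNA, was at 183, 186 and 169 CPM in Low and 233, 254 and 276 CPM in High, against 27.3 to 73.9 CPM. The helicase subunit Mcm5 was at 69.2, 66.4 and 84.7 CPM in Low and 53.9, 51.7 and 43.7 CPM in High, against 8.30 to 16.2 CPM. The Low and High libraries did not overlap for Dut, where High was higher, or for Mcm5, where Low was higher, though neither passed the test of the Cyto-ID groups given further on. In the whole list 7 of 56 genes did not overlap, 6 with High above and 1 with Low above. This is near the 13.6% of all genes tested.

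Clustered histone genes, which are copied mainly in S phase, split. Of 26, 19 were higher in 6 libraries, led by Hist1h2ap at 31.4 to 697 CPM and Hist1h2ae at 85.4 to 676 CPM, against at most 24.2 and 49.1 CPM in other cells. The linker histone Hist1h1c and the core histone Hist1h2bc were lower in 6 libraries, Hist1h2bc at 25.5 to 94.5 CPM against 91.7 to 293 CPM. Reads of near-identical histone genes may be split between copies by the counting, so single histone levels are uncertain. Hist1h2ap differed widely between libraries, as it was at 697, 304 and 443 CPM in Low and 497, 31.4 and 261 CPM in High, with M3 lowest in each group.

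When every cell was thinned to 1000 UMIs, members held means of 6.85 to 11.2 UMIs of the G2 and mitosis list per cell and library, against 1.16 to 2.01 in other cells. S phase genes gave 2.29 to 2.80 against 0.50 to 0.67. Between 78.7% and 91.5% of members of a library held more UMIs of the G2 and mitosis list than of the S phase list. The lists differ in length and the rule drew mostly on late genes, so these shares describe the chosen cells and are no count of phases.

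Members were also split by UMIs of Hist1h1b and Ube2c. Both genes belong to the rule, and the median member of 3 libraries had 4 of the 8 rule genes detected, so a cell without one of them reached the cut through the others. The split and the values that follow describe the chosen cells, with no test. Hist1h1b and Ube2c were both detected in 1135 members (52.1%), Hist1h1b alone in 378 (17.4%), Ube2c alone in 502 (23.1%) and neither in 162 (7.44%). The share with both ran from 28.6% in the High F6 library to 77.1% in the Low F2 library, whose members had median UMIs of 2590 and 10515, so it moved with depth and is not compared between groups. In other kept cells Hist1h1b was detected in 7.98% and Ube2c in 9.52%.

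Members with Hist1h1b alone carried more replication mRNA than members with Ube2c alone in the same library. Of 56 S phase genes, 29 were higher in them in 6 of 6 libraries and none was lower in 6, with a median log2 difference of 1.26. Of 11580 genes, 2.66% were higher and 2.43% lower in 6 of 6 libraries. Mcm3, a helicase subunit, averaged 141 CPM over libraries with Hist1h1b alone and 23.9 CPM with Ube2c alone. Pcna, the sliding clamp of the replication fork, averaged 171 and 40.2 CPM, and Chaf1b, a chaperone that places histones on new DNA, 68.3 and 5.54 CPM. Of 26 histones, 12 were higher with Hist1h1b alone, with Hist1h1e at 373 and 89.2 CPM.

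Of 68 genes of the G2 and mitosis list, 19 were higher with Ube2c alone in 6 of 6 libraries and 2 lower, with a median of -0.49. Cdc20 averaged 200 CPM with Ube2c alone and 24.6 CPM with Hist1h1b alone, Ccnb1 192 and 36.8 CPM, and Cenpa 442 and 104 CPM. The 2 exceptions were Stmn1 and Pbk, a mitotic kinase, which were higher with Hist1h1b alone. The Low F6 library had 10 members with Ube2c alone and 24 with Hist1h1b alone, so its values rest on few cells. Basal genes showed no such order, with 1 of 20 higher on each side.

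**Figure D2:**
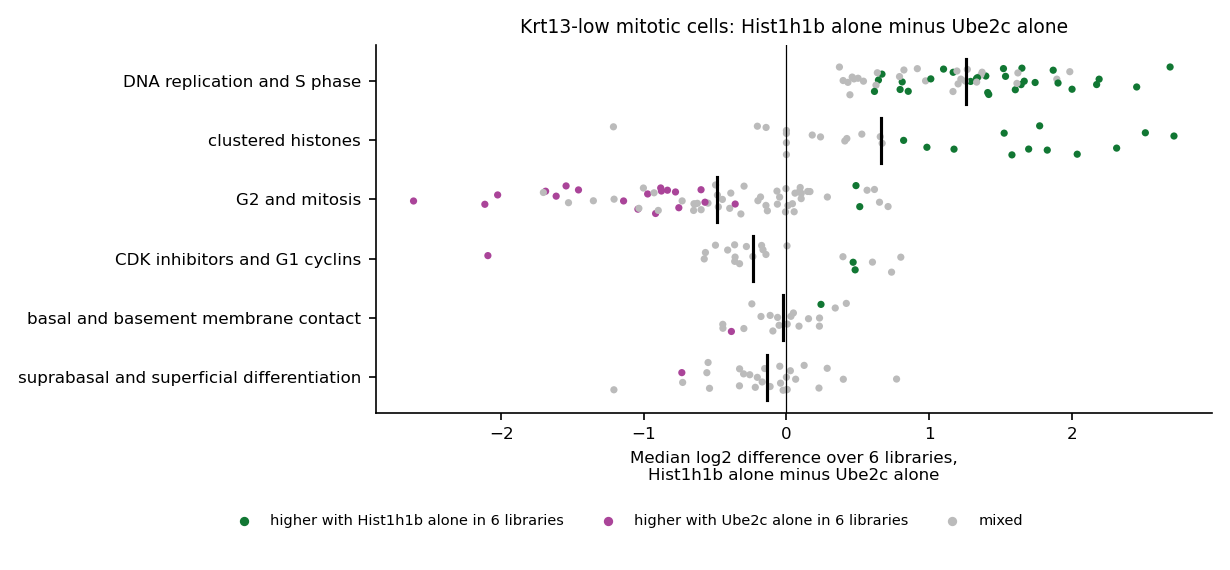
Difference in log2(CPM + 10) between members with Hist1h1b UMIs alone and members with Ube2c UMIs alone, as the median over 6 libraries, with each dot a gene and the black bar the median of a list. S phase genes sit to the right (median 1.26) and G2 and mitosis genes to the left (median -0.49), while the basal list is centred near 0.

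Of 21 genes that brake or license the cycle, 6 were higher in members than in other cells in 6 libraries and 4 lower, near the 26.5% and above the 11.1% of all genes. Cdkn3, a phosphatase that acts on Cdk1 and Cdk2, was at 60.1 to 124 CPM against 2.55 to 12.2 CPM, and Cdkn2d, an inhibitor of Cdk4 and Cdk6, at 32.9 to 108 CPM against 13.0 to 27.8 CPM. Cdk4 was at 210 to 382 CPM against 126 to 260 CPM. The inhibitor Cdkn2b was lower, at 25.0 to 60.8 CPM against 70.4 to 189 CPM, as were the antiproliferative genes Btg1 and Btg2, by median differences of -0.57 and -0.63. Cdkn1a, the p53 target that halts the cycle, was at 138, 116 and 382 CPM in Low and 165, 174 and 139 CPM in High, with the Low F6 library high, and overlapped the 163 to 257 CPM of other cells.

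The cells kept basal mRNA at about the level of the culture as a whole. The basal keratins Krt5 and Krt14 were at 2368 to 3775 CPM and 4923 to 12856 CPM, against 3005 to 4128 CPM and 6684 to 15999 CPM in other cells. The summed basal list was 0.87 to 1.09 times that of other cells of the same library. Of its 20 genes, 7 were higher than in other cells in 6 libraries, beside 26.5% of all genes, and none was lower in 6, beside 11.1%. These were the keratin Krt17, the basal transcription factor Trp63, the integrins Itga3 and Itga6, the hemidesmosome genes Col17a1 and Dst, and the neurotrophin receptor Ngfr. Trp63 was at 97.8, 78.4 and 68.2 CPM in Low and 122, 72.9 and 109 CPM in High, against 35.9 to 85.8 CPM.

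Differentiation genes were low. Of 28 suprabasal and superficial genes, 24 were lower than in other cells in 6 libraries and none was higher in 6, with a median of -1.56. Psca, a surface protein of upper cells, was at 297, 318 and 826 CPM in Low and 448, 495 and 74.5 CPM in High, against 3668 to 25900 CPM. Krt4, the pairing partner of Krt13, was at 12.7 to 47.4 CPM against 320 to 1118 CPM, and Sprr1a, a cornified envelope precursor, at 17.1 to 56.9 CPM against 376 to 916 CPM. Because the rule removed cells high in Krt13, these values describe the choice of cells. The ratio of members to other cells was 0.02 to 0.05 for Psca, 0.03 to 0.08 for Krt4, 0.01 to 0.06 for Sprr2f and 0.02 to 0.08 for Mal. The part of free RNA from other cells in these levels was not tested.

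The mitotic-scoring cells with Krt13 of 3 or more give a comparison within cells at or above the score cut. It is again a description because Krt13 set the border. Of these Krt13-high cells, 9.76%, 20.5% and 13.3% in Low lay in the top 5% of UMIs of their library. In High it was 14.5%, 20.6% and 16.7%. For Krt13-low mitotic cells it was 2.49%, 5.67% and 4.26% in Low and 11.4%, 2.87% and 14.1% in High. The part of doublets, barcodes that hold several cells, in the differences below was not tested. Of the basal list, 15 of 20 genes were higher in the Krt13-low cells in 6 of 6 libraries and none was lower in 6, with a median of 0.85. Over 11769 genes, 10.4% were higher and 3.24% lower in 6 libraries. The 15 included the integrins Itga2, Itga3, Itga6, Itgb1 and Itgb4, the laminin chains Lama3 and Lamb3, Col17a1 and Dst, with median differences from 0.67 to 1.2. Krt17 had the largest, 1.45. Krt5 and Krt14 were not among them, at -0.23 and -0.02.

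The 8 genes that led the Krt13-low side included 2 collagens. Thbs1, a secreted matrix glycoprotein, averaged 104 ± 64.5 CPM (SD over 6 libraries) against 10.4 ± 9.48 CPM in the Krt13-high mitotic cells. The collagens Col8a1 and Col12a1 averaged 66.4 and 117 CPM against 12.7 and 25.3 CPM. The Notch ligand Jag2 averaged 62.6 ± 4.56 CPM against 15.7 ± 16.8 CPM, and Igfbp7, a secreted binding protein, 373 ± 101 CPM against 114 ± 43.3 CPM. Cald1, an actin-binding protein, and the genes U90926 and Wfdc18 completed the 8. On the other side, Psca, Krt4, Sprr2d, Sprr2f, Mal, the chemokine Ppbp, the iron-binding protein Ltf and the arginase Arg1 were lowest. The Krt13-high mitotic cells numbered 41, 78 and 15 in Low and 55, 102 and 48 in High, so their levels rest on few cells.

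Of the G2 and mitosis list 10 of 68 genes were higher in Krt13-low cells in 6 libraries and 2 lower, near the shares of all genes, with a median of 0.30. The median over all genes was 0.13. Of the S phase list 20 of 56 were higher and none lower in 6, beside 10.4% of all genes higher, and the median was 0.46. The 20 included Mcm3 at 0.89, the polymerase subunit Pola1 at 0.93 and Dut at 0.79. Of 26 clustered histones 8 were higher and none lower in 6, with a median of 0.43.

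Against Krt13-low cells under the score cut the basal list went the other way. None of its 20 genes was higher in the dividing cells in 6 libraries and 8 were lower, with a median of -0.21, where 16.1% of 11991 genes were higher and 9.37% lower in 6 libraries. The 8 were Krt14, Itga2, Itga6, Itgb1, Itgb4, Dst, Lama3 and the transcription factor Sox9, with medians between -0.44 and -0.11. Of the 28 differentiation genes 14 were lower and none higher in 6, with Sprr2f at -3.46 and Psca at -2.49. All 68 genes of G2 and mitosis were higher, with a median of 2.17.

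**Figure D3:**
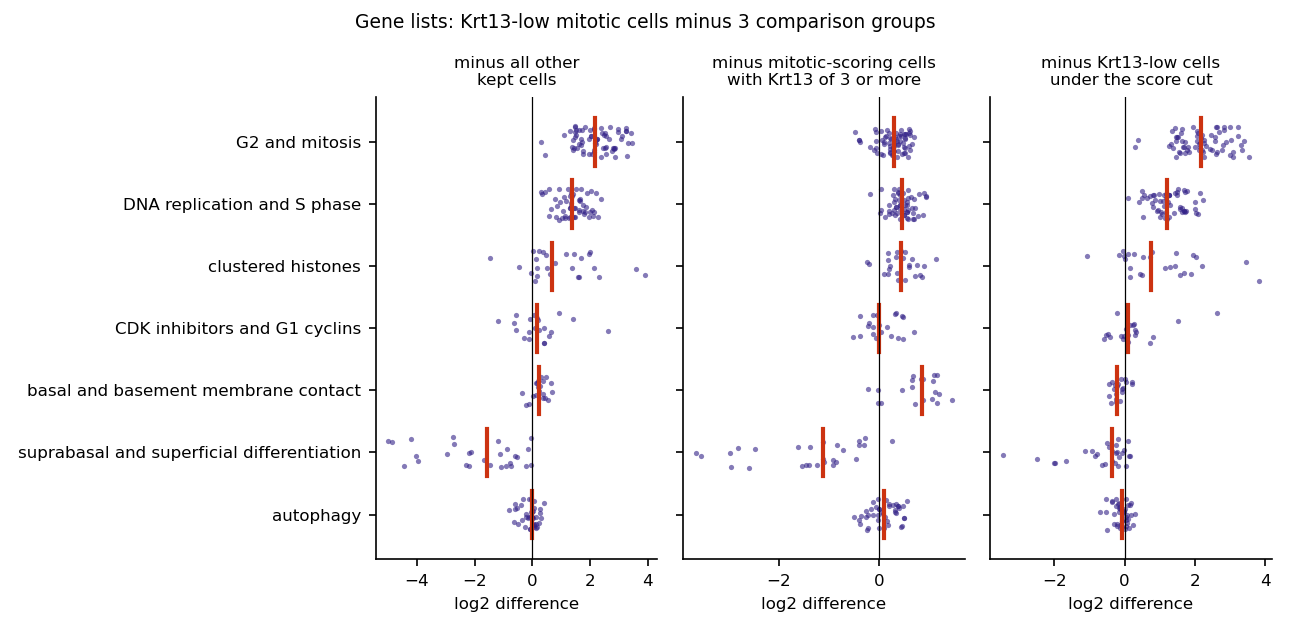
Differences in log2(CPM + 10) of Krt13-low mitotic cells from 3 comparison groups, with each dot the median of 1 gene over 6 libraries and the red bar the median of its list. The basal list stands at 0.25 against all other kept cells, 0.85 against mitotic-scoring cells with Krt13 of 3 or more and -0.21 against Krt13-low cells under the score cut.

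The share of Krt13-low mitotic cells was larger in organoids from Cyto-ID High founders in these libraries. It was 5.67%, 7.23% and 3.52% of kept cells in Cyto-ID Low and 10.7%, 8.54% and 14.0% in Cyto-ID High. The 95% Wilson intervals, which cover counting error only, reached from 2.89% to 7.93% over the Low libraries and from 7.76% to 15.1% over the High libraries. Every High library stood above every Low library, and the F6 label gave both the lowest and the highest share. The means were 5.47% ± 1.86 and 11.1% ± 2.77 (SD, n = 3), a difference of 5.60 percentage points (p = 0.10, two-sided exact permutation test, the smallest p that 3 against 3 libraries can give).

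Detection of the 8 genes depends on the UMIs of a cell, so every cell was also thinned to 1000 UMIs. After thinning and choosing the cells again, which left out 115 of 11831 Low cells and 232 of 13323 High cells, the share was 8.37% ± 2.48 and 14.4% ± 3.99, without overlap (SD, n = 3, p = 0.10, exact permutation test). The score cut on thinned cells was 0.300, which 1 UMI of any of the 8 genes reaches. The thinned class is therefore wider than that at full depth and is not the same choice of cells. With the stricter 95th percentile the means were 3.28% and 5.22%, the libraries overlapped and p was 0.30 (exact permutation test). In members of any library no list of fibroblast, immune, endothelial, or melanocyte and nerve markers summed to more than 16.2 CPM. The muscle list was at 14.5 to 37.0 CPM in Low and 5.84 to 30.2 CPM in High, 1.22 to 3.10 times its level in other cells, and its part in the share was not tested.

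**Figure D4:**
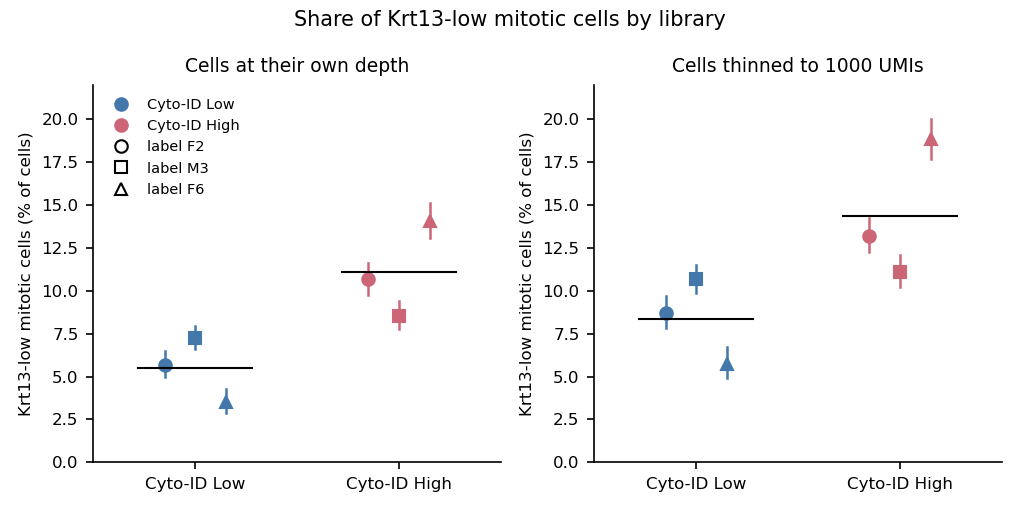
Krt13-low mitotic cells as a percent of kept cells in each library, at full depth (left) and with every cell thinned to 1000 UMIs (right), with 95% Wilson intervals as vertical lines and group means as horizontal lines. High libraries lie between 8.54% and 14.0% on the left, above the 3.52% to 7.23% of Low. On the right High lies at 11.1% to 18.8% and Low at 5.74% to 10.7%, with Low M3 and High M3 close together.

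The split of mitotic-scoring cells by Krt13 overlapped between the groups. Of the 2516 cells at or above the score cut, 83.1%, 83.9% and 86.2% were Krt13 low in Cyto-ID Low and 89.4%, 79.0% and 92.9% in Cyto-ID High. The means of 84.4% ± 1.65 and 87.1% ± 7.25 (SD, n = 3) overlapped (p = 0.60, exact permutation test). Krt13-low cells of any score made up 56.4% ± 1.65 of kept cells in Low and 64.3% ± 12.8 in High (p = 0.40, exact permutation test). Within Krt13-low cells, members were 9.74% ± 3.46 in Low and 17.2% ± 2.15 in High, without overlap (SD, n = 3, p = 0.10, exact permutation test). On thinned cells, with their wider class, that pair was 15.7% and 23.5%, with overlap (p = 0.20, exact permutation test).

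The content of cycle mRNA in members was compared between the groups, on cells that the score cut chose by genes of the same programme and with 3 against 3 libraries, where p cannot fall below 0.10. After thinning, the mean UMIs of the G2 and mitosis list per cell were 9.30 ± 2.24 in Low and 9.47 ± 1.33 in High (SD, n = 3, p = 1, exact permutation test). The S phase list gave 2.71 ± 0.11 and 2.55 ± 0.23 (p = 0.40, exact permutation test), and the histones 2.00 ± 0.69 and 1.46 ± 0.61, lower in High in 3 of 3 label pairs (p = 0.40, exact permutation test). The share of members with more G2 and mitosis than S phase UMIs was 86.5% ± 6.75 in Low and 90.4% ± 1.79 in High, higher in 3 of 3 label pairs (p = 0.50, exact permutation test). In the fit across all genes none of the 68 G2 and mitosis genes, 56 S phase genes and 25 tested histones passed. With TMM factors (trimmed mean of M values) the median difference of High against Low was 0.13 for mitosis genes and 0.07 for S phase genes, beside 0.04 over all genes. With plain CPM all 3 medians moved down together, to -0.08, -0.14 and -0.15, so their signs change with the scaling.

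Gene by gene, few transcripts of the dividing cells passed a test between the founders' Cyto-ID classes. With limma on log2(CPM + 1) and Benjamini-Hochberg adjustment, 12 of 11580 genes passed an adjusted p of 0.05 (0.104%), and all 12 rose in Cyto-ID High. No gene passed as lower, while 405 genes were higher and 341 lower at an unadjusted p under 0.05, and limma voom on summed UMIs called 16 higher and 4 lower. The 12 held 2 metallothioneins, 4 glutathione S-transferase genes, Krtdap of the differentiation list and the genes Spink5, Capns2, Ces1h, Igfbp2 and Tesc. Tesc met the filter on low values only through the High libraries. Of the 12, leaving out Low F2, M3 or F6 kept 11, 9 and 8, and plain CPM kept 9. Leaving out the High F2 library left no gene past the threshold, and leaving out High F6 left 1. No gene passed either when cells were thinned to 1000 UMIs, with the score cut at the 95th percentile, or without the filter on low values, and leaving out High M3 gave 15 higher and 4 lower genes. Where Low is near 0 the fitted size depends on the pseudocount, as between 10 and 0.1 CPM it ran from 4.39 to 7.59 for Mt4, 2.31 to 5.98 for Mt3, 2.69 to 5.75 for Gsta1 and 1.16 to 5.12 for Tesc.

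Metallothioneins are small proteins that bind zinc and copper. Mt4, the form typical of squamous epithelium, was at 15.8, 2.42 and 0 CPM in Low and 441, 118 and 372 CPM in High. It rested on 47 UMIs in Low and 4345 in High. The groups did not overlap, as was so with High above for 7.44% of all genes tested. The log2 difference was 6.30 ± 0.79 (SE) with an adjusted p of 0.015 in limma. Mt3 was at 2.21, 1.76 and 0 CPM in Low and 58.2, 29.1 and 43.7 CPM in High, from 11 and 547 UMIs (4.53 ± 0.48, limma adjusted p = 0.0045). The common forms Mt1 and Mt2 did not pass, with Mt1 at 581, 732 and 613 CPM in Low and 1179, 829 and 2361 CPM in High (limma adjusted p = 0.53). Metallothionein genes resemble each other, so reads may be split between them by the counting.

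Glutathione S-transferases attach glutathione to reactive compounds. Gsta1 was at 7.12, 4.22 and 0 CPM in Low and 54.5, 60.9 and 99.7 CPM in High (4.51 ± 0.63 on the log2 scale, limma adjusted p = 0.021). Gstm1 was at 61.7, 79.3 and 39.6 CPM in Low and 209, 267 and 158 CPM in High, and each High library was at least at 158 CPM (2.02 ± 0.29, limma adjusted p = 0.021). It lost the threshold with plain CPM (limma adjusted p = 0.053), without Low F2 (0.066) and without Low F6 (0.11), among other settings. Gsta2 and the related Gm3776 averaged 2.18 and 1.80 CPM in Low and 26.6 and 22.4 CPM in High. Gsta1, Gsta2 and Gm3776 rested on 36, 18 and 14 UMIs in Low and 673, 274 and 230 UMIs in High. In Low F6 they had 0, 1 and 1 UMIs. Gsta1, Gsta2 and Gm3776 are close relatives, and how shared reads were assigned is not given in the sources used here, so they may not be 3 separate signals.

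Ces1h, a carboxylesterase gene, was at 7.88, 5.48 and 3.60 CPM in Low and 63.7, 50.3 and 53.3 CPM in High (3.33 ± 0.32, limma adjusted p = 0.0036). It rested on 38 UMIs in Low, 1 of them in Low F6, and 650 UMIs in High. In Low F6 a count of 0 allows up to 9.22 CPM. Igfbp2, which binds insulin-like growth factors, was at 23.9, 10.0 and 4.05 CPM in Low and 165, 51.0 and 94.9 CPM in High (3.27 ± 0.52, limma adjusted p = 0.042). Igfbp2 rested on 83 UMIs in Low, 2 of them in Low F6, and 1488 UMIs in High. It lost the threshold with plain CPM (limma adjusted p = 0.056), without Low M3 (0.10) and without Low F6 (0.15), among other settings. Tesc, a calcium-binding protein, was at 0.74, 0.67 and 0 CPM in Low and 15.7, 13.9 and 8.41 CPM in High. Its Low value rests on 4 UMIs over all 3 libraries, against 142 in High. Tesc was under 1 CPM in every Low library and met the filter only through the High libraries. Its call (3.34 ± 0.47, limma adjusted p = 0.021) rests on that filter and is no support for a difference. Without the filter its limma adjusted p was 0.25, where all 12 called genes lost the threshold. It was not tested when a High library was left out.

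Krtdap, a secreted product of differentiating keratinocytes, was at 77.3, 14.5 and 16.0 CPM in Low and 583, 190 and 853 CPM in High (4.26 ± 0.62, limma adjusted p = 0.022). It lost the threshold without Low M3 (limma adjusted p = 0.070) and without Low F6 (0.21), among other settings. Spink5, a protease inhibitor of the upper layers, was at 114, 79.9 and 65.9 CPM in Low and 418, 184 and 367 CPM in High, and Capns2, a calpain small subunit, at 5.41, 1.65 and 4.76 CPM in Low and 58.0, 27.1 and 29.5 CPM in High. Capns2 rested on 21 UMIs in Low, 1 of them in Low F6, and 535 UMIs in High. Spink5 passed at a limma adjusted p of 0.040 and lost the threshold in 11 of 17 alternatives, among them summed UMIs (0.070). For Krtdap, Spink5 and Capns2 the lowest High library was above the highest Low library, as was so for 7.44% of all genes tested. Choosing genes past the threshold favours such a separation.

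**Figure D5:**
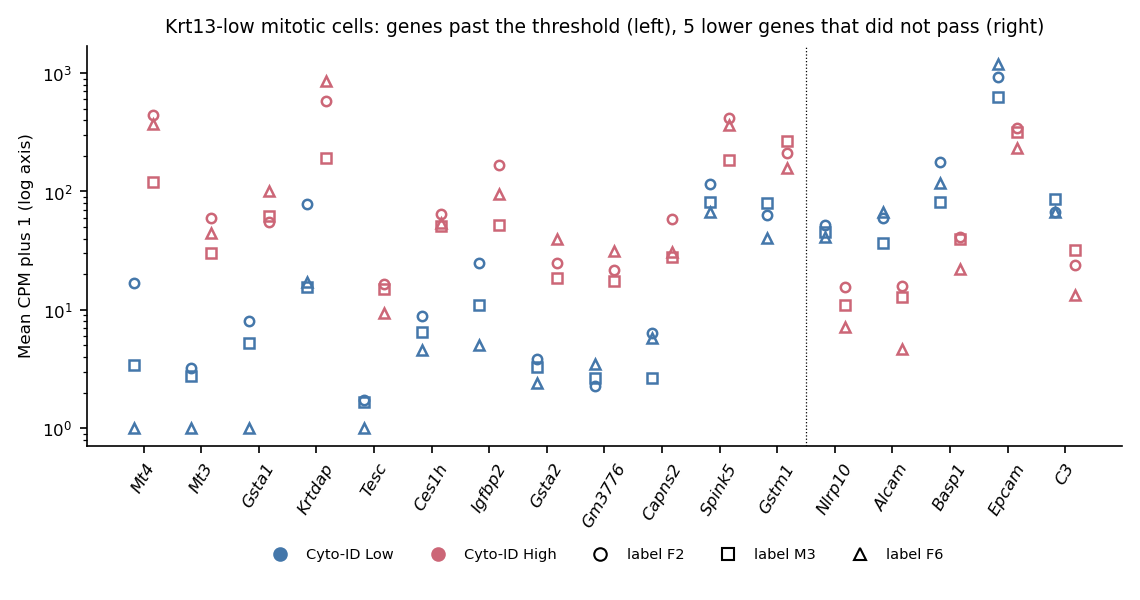
Mean CPM plus 1 (log axis) in Krt13-low mitotic cells of each library for the 12 genes past the threshold, and right of the dotted line the 5 lower genes with the smallest p, which did not pass. Symbols give the label F2, M3 or F6 and colours the founders' Cyto-ID class. For Ces1h the High libraries lie at 50.3 to 63.7 CPM and the Low libraries at 3.60 to 7.88 CPM. In Low F6 its value rests on 1 UMI and is under the 9.22 CPM that a count of 0 allows.

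The same genes were compared with other cells of the High libraries. Mt3, Tesc, Ces1h and Gstm1 were higher in members than in other cells in all 3 High libraries, with Tesc at 1.86 to 2.67 times and Gstm1 at 1.18 to 1.74 times. Mt3 was at 1.08 to 1.78 times and Ces1h at 1.08 to 1.46 times, so their lowest libraries were near ties. Gstm1 was also higher in members in the Low libraries, at 1.33 to 1.99 times. Mt4, Gsta1, Krtdap, Gsta2, Gm3776 and Capns2 were lower in members in all 3 High libraries, with Mt4 at 0.26 to 0.69 times and Krtdap at 0.22 to 0.67 times. The part of free RNA from other cells in the 6 was not tested. The share of members with an Mt4 UMI was 52.8%, 14.4% and 20.03% in High, at median UMIs of 14626, 2806 and 2590, against 39.4%, 20.9% and 16.4% of other cells. In other kept cells 16 of 11585 genes passed the same test between Cyto-ID groups (0.138%), and 6 were shared with members, which is 50% of the members' calls and 37.5% of the others'.

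No gene passed as lower in High, and the 5 lower genes with the smallest p are given as values. Of these, Nlrp10 passed with voom (adjusted p = 0.043) and with a pseudocount of 10 CPM (limma adjusted p = 0.033), Alcam with a pseudocount of 10 CPM (limma adjusted p = 0.0497), and C3 without High M3 (limma adjusted p = 0.025). With the label as a replicate block Nlrp10, Basp1 and C3 passed (limma adjusted p = 0.020, 0.036 and 0.035). Nlrp10, an inflammasome-related gene of epithelia, was at 50.8, 44.1 and 39.9 CPM in Low and 14.7, 9.99 and 6.21 CPM in High (-1.90 ± 0.31, limma adjusted p = 0.053). Epcam, an epithelial adhesion molecule, was at 920, 630 and 1200 CPM in Low and 341, 317 and 234 CPM in High (limma adjusted p = 0.20). The adhesion molecule Alcam, the membrane protein Basp1 and complement C3 averaged 53.5, 125 and 72.4 CPM in Low and 10.2, 33.2 and 22.1 CPM in High (limma adjusted p = 0.13, 0.13 and 0.20). The libraries of the 2 groups did not overlap for any of these 5 genes, as was so for 13.6% of all genes tested, 7.44% with High above and 6.12% with Low above. The 5 were picked by small p and a fall in all label pairs, which favours such a separation.

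Calls within the gene lists stand beside the 0.104% of all genes called. Of 27 tested differentiation genes 1 passed, Krtdap, and the median difference was 0.15 with TMM factors, -0.06 with plain CPM and 0.59 on thinned cells, beside 0.04, -0.15 and 0.20 over all genes tested. The Low and High libraries did not overlap for 9 of the 27, 7 with High above and 2 with Low above. Of all genes tested these shares were 7.44% and 6.12%. At an unadjusted limma p under 0.05 stood 9 of the 27, beside 746 of 11580 genes. Krt16, a keratin of stressed and wounded epithelium, was at 288, 337 and 400 CPM in Low and 831, 868 and 778 CPM in High, and its limma adjusted p was 0.053. Of the 13 metallothionein and other genes that earlier results of these data had pointed to, 6 passed, which is no independent evidence. None of 20 basal genes passed, with a median of -0.23 and 14 lower, beside 5294 of 11580 genes lower. Itgb4, a hemidesmosome integrin, was at 487, 331 and 325 CPM in Low and 282, 213 and 157 CPM in High (limma adjusted p = 0.74).

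Autophagy genes carry interest because the founders were sorted by a dye for autophagic vesicles. In members none of 42 passed (lowest limma adjusted p = 0.72), 29 were lower and 13 higher in High, and the median difference was -0.16, beside 0.04 over all genes. The Low and High libraries did not overlap for 8 of the 42, 1 with High above and 7 with Low above. Of all genes tested these shares were 7.44% and 6.12%. With plain CPM 36 of the 42 were lower in High with a median of -0.36, beside -0.15 over all genes, and on thinned cells 23 were lower with a median of -0.04, beside 0.20. Their summed level without TMM factors was 4277 to 4695 CPM in the Low libraries and 2533 to 3959 CPM in the High libraries. In other cells of the same libraries it was 5335 to 5998 CPM and 3131 to 5088 CPM. Ctsl, a lysosomal protease, was at 638, 538 and 554 CPM in Low and 397, 345 and 258 CPM in High (limma adjusted p = 0.72). Sqstm1, the cargo receptor p62, was at 58.7, 81.6 and 63.4 CPM in Low and 48.3, 49.4 and 49.4 CPM in High (limma adjusted p = 0.86). Against other cells, 9 of the 42 were lower in members in 6 libraries and 4 higher, beside 11.1% and 26.5% of all genes, the 9 including Sqstm1, Gabarap, Map1lc3b, Ctsl and Ctsd.

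Finally, the Cyto-ID difference of members was set against that of other cells. The difference of differences passed for 0 of 12014 genes in limma (0%), with 576 at an unadjusted p under 0.05. None passed in 16 alternative fits, where the unadjusted count ran from 319 to 979. On the lower side the smallest p belonged to Slpi, a secreted protease inhibitor, with -1.82 ± 0.32 on the log2 scale (limma adjusted p = 0.90). Slpi was at 93.3, 65.6 and 65.4 CPM in members of Low and 43.9, 75.1 and 76.2 CPM in members of High. In other cells it was at 102, 73.2 and 76.1 CPM in Low and 153, 432 and 284 CPM in High.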

How the data were processed

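Single-cell RNA of organoids from Cyto-ID Low and Cyto-ID High founders was analysed in 3 libraries each. The submitters' processing notes name Cell Ranger 6.0.0, Seurat 4 and the mm10 and GRCm38 builds. The deposited tables hold natural log values: read from the values themselves, each is the natural log of 1 plus UMIs per 10000 of the cell, and whole UMIs came back for 100% of values. The largest deviation from a whole UMI was 4.0e-11. How doublets were treated is not given in the sources used here, and no doublet caller was run.

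Python 3.11.15, numpy 2.4.6, scipy 1.17.1 and matplotlib 3.10.9 were used. Cells were not used as replicates. The mean CPM of each library's members was scaled by TMM factors, and log2(value + 1) was tested with limma 3.58.1 (R 4.3.3, trended variance, Benjamini-Hochberg threshold 0.05), in genes of at least 1 CPM in at least 3 libraries. A test on log values was chosen as the main one because the deposited unit is a log. Since whole UMIs were recovered, limma voom on summed UMIs was run as an alternative. Shares were tested by two-sided exact permutation, whose smallest p with 3 against 3 is 0.10. Thinning drew 1000 UMIs a cell with seed 7. Differences from other cells used log2(CPM + 10) without a test. The fits were checked on simulated data.

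The members and lists were chosen with earlier results of these data known. Named genes were the called genes with a group mean of at least 10 CPM and the same direction in 3 of 3 label pairs, up to 12 a side. Where fewer than 5 passed, the 5 with the smallest p under the same conditions were added. The 20 highest and 10 lowest genes against other cells, 8 and 8 against Krt13-high mitotic cells, and 2 to 4 examples a list completed them.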

Additional observations from a re-analysis of the deposited data

Results flagged for a closer look

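The difference of differences was looked at in 10 genes, the 5 with the smallest p on each side among those with a group mean of at least 10 CPM and 1 direction in 3 of 3 label pairs, so they were chosen for this kind of pattern. For 4 of them, the mean of members lay on opposite sides of that of other cells in the 2 groups, in all 3 Low and all 3 High libraries, as was so for 161 of 11580 genes (1.39%), and several of these sides are not resolved at this depth. None of these differences of differences passed in limma (adjusted p = 0.90 for each), in 3 libraries a group. Tesc had a log2 difference of 1.27, with members at 0.74, 0.67 and 0 CPM against 0.88, 0.90 and 0.25 CPM in other cells of Low, and at 15.7, 13.9 and 8.41 CPM against 7.03, 7.46 and 3.15 CPM in High. Its Low side rests on 2, 2 and 0 UMIs, and it met the filter on low values only through the High libraries. Tmem161b had 1.03, with members below other cells in Low and above them in High, and in Low F6 its level in members, 2.89 CPM, is under the 9.22 CPM that a count of 0 allows in them. Fblim1, an adhesion adaptor, had -1.04, with members at 54.4, 31.1 and 56.2 CPM against 34.0, 19.7 and 27.2 CPM in Low, and at 19.1, 9.96 and 10.7 CPM against 23.5, 10.2 and 18.1 CPM in High, a near tie in High M3. Lurap1l had -0.81, with members above other cells in Low and below them in High.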

How the results depend on the processing

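The difference in share kept its direction in every alternative run, between 4.12 and 6.87 percentage points when 1 library was left out, and was 11.4 points with at least 1000 detected genes, where High was 16.7% ± 10.4. That filter kept 3329 of 3547, 5257 of 5617 and 1560 of 2667 cells in Low. In High it kept 4173 of 4356, 1989 of 4483 and 998 of 4484. It removed cells unevenly, and its part in the 11.4 points was not tested. The 12 genes higher in High became 0 without a filter on low values (920 at an unadjusted p under 0.05), 0 at the 95th percentile (575), 0 after thinning (642) and 1 with a pseudocount of 0.1 CPM, while limma voom called 16 higher and 4 lower, 20 in all. Leaving out 1 library gave 0 to 19 genes, with 0 without High F2 (577 unadjusted), 1 without High F6 and 19 without High M3, of which 15 were higher, 4 lower and 11 among the 12. The causes were not tested. Over 286 alternatives for single genes, 196 kept their side of the threshold, 83 lost it, 7 gained it and none reversed. All 83 losses fell among the 12 called genes. Ces1h lost its call in 4 of 17 alternatives, Krtdap in 8, Gstm1 and Igfbp2 in 9 and Spink5 in 11. The 7 gains fell among the 5 lower genes, for which keeping their side meant still not passing. The Krt13-low share of mitotic-scoring cells, 2.70 points higher in High, ranged from -0.21 (without High F6) to 6.76 when 1 library was left out. The difference in UMI ratio was 0.055, -0.10 with at least 1000 detected genes and -0.00053 without the top 5% of UMIs, and ranged from -0.012 (without High F2) to 0.14 when 1 library was left out. The difference of differences gave 0 genes in each library left out. With the label as a replicate block, 32 genes passed, 25 higher and 7 lower, among them Nlrp10 (limma adjusted p = 0.020), Basp1 (0.036) and C3 (0.035), and the share gave p = 0.25 in the exact sign-flip test, the smallest 3 pairs allow. Deviations of same-labelled libraries correlated at 0.34 (F2), 0.33 (M3) and 0.067 (F6) across 9245 genes, and the High F6 library correlated best with Low F2 (0.17), so the libraries share a label and are not shown to be pairs. Depth limits the lowest genes: in Low F6 the members hold 325527 UMIs, so a count of 0 allows up to 9.22 CPM.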
